A study of Mus musculus with 2 samples.

Results

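The microRNA genes Mir219a-1, Mir219a-2, Mir338 and Mir3065, which form the miR-219 and miR-338 loci associated with oligodendrocytes, were examined in small RNA libraries of mouse hindbrain. They were chosen by gene symbol, and 3 of the 4 symbols have a row in the count tables, which hold 1973 microRNA genes. Mir3065 has no count of its own here, but it lies wholly inside the interval of Mir338 on the other strand. The reads on that strand of the Mir338 interval were therefore used to describe it. The series holds 1 group, hindbrain tissue of healthy B6NCrl embryos of both sexes at embryonic day 15.5. The first replicate is a pool from 78 embryos and the second a pool from 62, so each value is an average over many embryos and over all cell types of the tissue. No treatment, other age or other tissue was compared.

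Oligodendrocytes are the glial cells that make myelin in the central nervous system. Their precursors arise in the ventral hindbrain and spinal cord before birth, and most myelin forms after birth. miR-219 and miR-338 are known to accumulate as precursors mature into myelinating cells, where they repress genes that keep precursors dividing, such as Pdgfra, and neuronal transcription factors. A microRNA gene gives a hairpin whose 5p and 3p arms can each yield a mature microRNA, and bases 2 to 8 of that molecule, the seed, pair with target messenger RNAs.

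The mature sequences are shown because the seed tells which of these genes can share targets, and because their overlap bears on what could be counted. All are from RefSeq on build GRCm38.p6, written 5′ to 3′ with the seed in capitals. RefSeq lists no 3p arm for Mir219a-2 or Mir3065, so none is printed, which does not show that these hairpins yield none.
miR-219a-5p (Mir219a-1 and Mir219a-2): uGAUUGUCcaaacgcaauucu
miR-219a-1-3p (Mir219a-1): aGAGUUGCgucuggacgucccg
miR-338-5p (Mir338): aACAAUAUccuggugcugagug
miR-338-3p (Mir338): uCCAGCAUcagugauuuuguug
miR-3065-5p (Mir3065): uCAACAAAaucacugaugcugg
Mir219a-1 and Mir219a-2 shared the seed GAUUGUC through an identical 5p molecule. None of the 5 seeds above occurred in a gene other than those named beside it, among the 1738 mature entries of the RefSeq table. The reverse complement of miR-338-3p matched miR-3065-5p over 21 of its 22 bases, so these molecules come from the same stretch of DNA read in opposite directions.

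The genes with a row lie on 3 chromosomes of mm10 (GRCm38), each on the minus strand. Mir219a-1 (ENSMUSG00000065555.1, 110 nt) is at chr17:34024983-34025092, 302 bases from Ring1, a Polycomb gene, and it overlaps the long non-coding RNA gene Gm26940 on the same strand over 88 nt. Mir219a-2 (ENSMUSG00000065485.1, 97 nt) is at chr2:29845631-29845727, outside any protein-coding gene, 628 bases from Urm1. Mir338 (ENSMUSG00000065600.1, 98 nt) is at chr11:120014765-120014862, in an intron of all 6 Aatk transcripts that span it. Aatk encodes a kinase and is transcribed from the same strand. Mir3065 (ENSMUSG00000105524, 87 nt, plus strand) is at chr11:120014767-120014853, and all 87 of its bases fall within Mir338. Each miR-219 gene also has a microRNA gene annotated within it on the plus strand, Mir219b in Mir219a-2 (65 nt) and Mir219c in Mir219a-1 (60 nt), and neither has a count of its own here. Of the genes annotated within 10 kb of the members, none other than Mir338, a neighbour of Mir3065, had a row in the tables. The hairpin of Mir219a-1 was 69.1% G and C, against 55.7% for Mir219a-2 and 56.1% for Mir338.

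**Figure D1:**
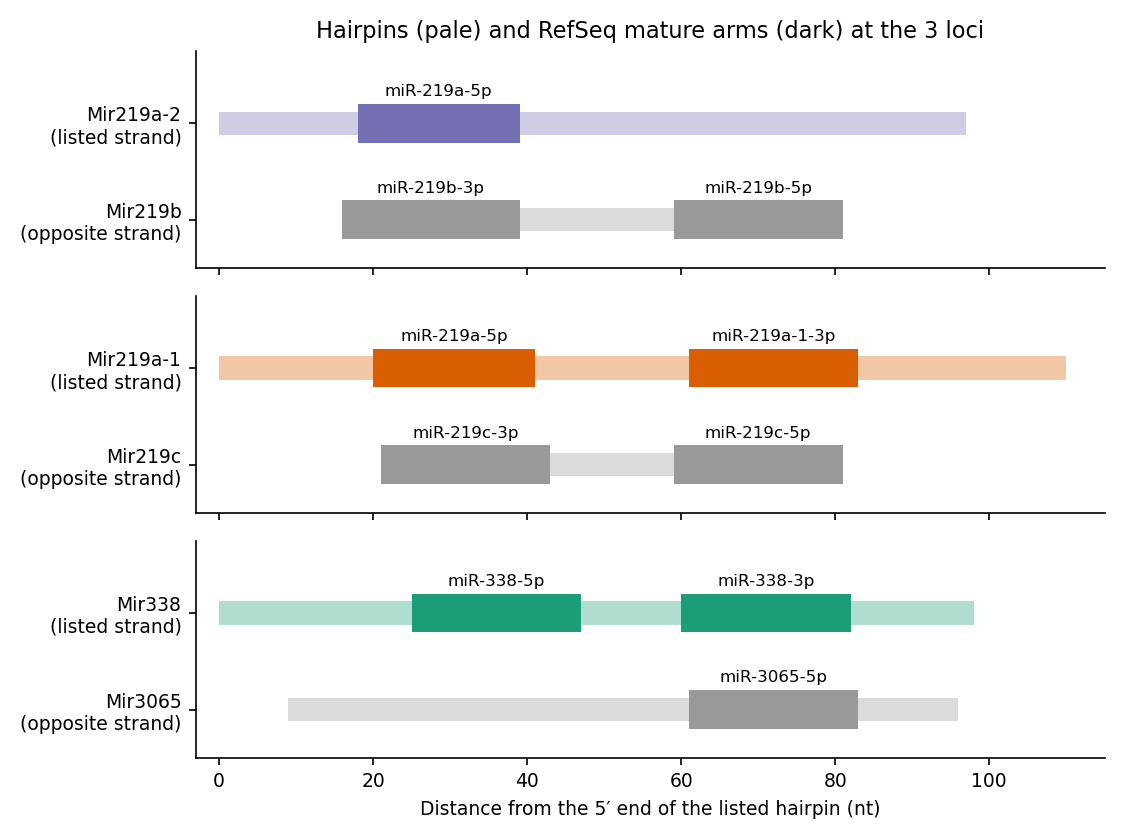
Map of the 3 loci, with the distance in nt from the 5′ end of the hairpin that has a row on the x axis. Pale bars are hairpins and dark bars the mature arms listed by RefSeq, with the opposite-strand gene in grey. The arms on the opposite strand lie over arms of the listed hairpin, as miR-3065-5p over miR-338-3p. The exception is miR-219b-5p, which lies where RefSeq lists no arm of Mir219a-2.

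The hairpins of the miR-219 genes are printed next because a read from their common part cannot be placed at a single locus. Capitals mark the longest stretch that they share.
Mir219a-1: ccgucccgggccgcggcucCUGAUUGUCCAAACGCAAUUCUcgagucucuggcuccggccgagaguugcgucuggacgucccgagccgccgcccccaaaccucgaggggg
Mir219a-2: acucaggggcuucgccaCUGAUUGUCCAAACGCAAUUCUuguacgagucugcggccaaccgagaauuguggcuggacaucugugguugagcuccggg
The shared stretch was 22 nt long and held the whole of miR-219a-5p, which has 21 nt. A read of exactly that molecule matches both loci. The tables list reads placed at several loci apart from the genes, so such reads may be absent from both rows, and the counts of Mir219a-1 and Mir219a-2 are uncertain for that reason. Of all windows of 22 nt, 1 of 89 in Mir219a-1 and 1 of 76 in Mir219a-2 also occurred in a microRNA gene elsewhere, and no window of 23 nt did. Reads of that length from the rest of each hairpin, the 3p side included, had no exact copy in another microRNA gene. In Mir338 no window of 18 nt or longer occurred in a microRNA gene elsewhere, so no such overlap with another microRNA gene was found for Mir338 or Mir3065; copies elsewhere in the genome were not searched. The tables count a whole hairpin and do not separate its arms.

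The libraries held 8327917 reads in replicate 1 and 10507754 in replicate 2, of which 3937840 and 4839647 lay on the own strand of a microRNA gene. Levels are given as CPM, counts scaled to a common total of those own-strand reads. Reads placed at several loci made up 35.4% and 34.2% of all reads. Counting error alone lets a gene with 0 reads stand for as many as 3, which is 0.762 CPM in the first library and 0.62 CPM in the second. As a check for neural tissue, though not for hindbrain as such, neuronal and neural progenitor genes were listed. Of these, 8 of 9 had a row, and 5 of them had at least 10 reads in both pools. Mir137 (8360 ± 637 CPM), Mir128-1 (2333 ± 265 CPM), Mir128-2 (1305 ± 169 CPM) and Mir9-3 (576 ± 99.1 CPM) were well detected. Mir124a-1, Mir124a-2, Mir124a-3 and Mir9-2 had only 6 to 21 reads each. The mature forms of these genes, and those of Mir9-3, Mir128-1 and Mir128-2, are encoded at several loci. The part of reads placed at several loci in the low counts was not tested. Mir9-1 has no row, and 72 and 164 reads lay on its strand, opposite to Gm25641. Intervals and limits here cover counting error only, since reads without molecular identifiers are not independent molecules.

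Mir219a-2 had the most assigned reads of the 4 genes, and all 3 genes with a row were clearly detected in both pools. Mir219a-2 had 8038 reads in replicate 1 and 10622 in replicate 2, or 2041 CPM (95% exact interval 1997 to 2086) and 2195 CPM (2153 to 2237). Mir338 had 1415 and 1589 reads, or 359 CPM (341 to 379) and 328 CPM (312 to 345). Mir219a-1 had 823 and 954 reads, or 209 CPM (195 to 224) and 197 CPM (185 to 210). The mean level was 2118 ± 109 CPM for Mir219a-2, 344 ± 21.9 CPM for Mir338 and 203 ± 8.40 CPM for Mir219a-1 (SD, n = 2). Together the 3 genes held 2665 ± 78.3 CPM, of which Mir219a-2 gave 79.5% ± 1.74, Mir338 12.9% ± 1.20 and Mir219a-1 7.63% ± 0.539 (SD, n = 2). These are shares of assigned reads, and the SD does not cover reads of the miR-219 genes that were placed at several loci.

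The order Mir219a-2, Mir338, Mir219a-1 was the same in both pools, and the values of the 3 genes did not overlap. Reads of Mir219a-2 exceeded those of Mir219a-1 by 9.77-fold in replicate 1 (95% exact interval 9.09 to 10.5) and 11.1-fold in replicate 2 (10.4 to 11.9). Thus the pair that shares miR-219a-5p differed far more between loci than either gene did between pools. Reads of Mir219a-2 exceeded those of Mir338 by 5.68-fold (5.37 to 6.01) and 6.68-fold (6.34 to 7.05). Mir338 exceeded Mir219a-1 by 1.72-fold (1.58 to 1.88) and 1.67-fold (1.54 to 1.81), the ratio that varied least between the pools. This is an order of reads assigned to a hairpin, not scaled by length (the hairpins have 97 to 110 nt), and for the miR-219 genes it leaves out what was placed at several loci. For 2 genes measured in the same 2 pools, an exact two-sided paired permutation test cannot give a p below 0.5, so none is given. In this bulk tissue, few cells with much of a microRNA and many cells with little cannot be told apart.

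**Figure D2:**
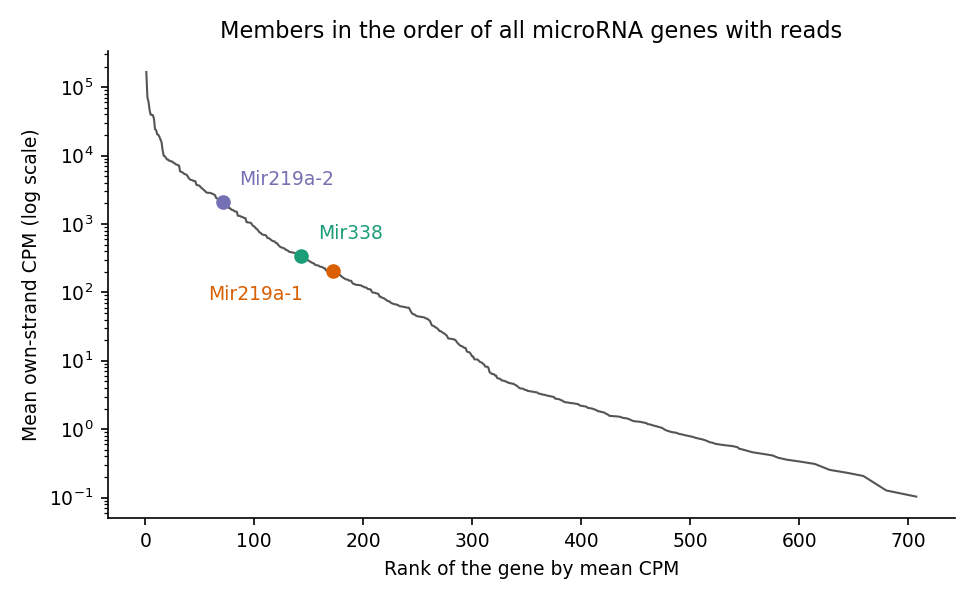
Mean CPM on the gene's own strand (log scale) against the rank of each microRNA gene that had reads, with the members as coloured points and their SD over the 2 pools, mostly smaller than the point. Mir219a-2 stands at rank 71, Mir338 at 143 and Mir219a-1 at 172.

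Among all genes of the tables, Mir219a-2 ranked 71 by mean CPM, above 83.3% of the 426 genes with at least 10 reads in a library. Mir338 ranked 143 (above 66.4%) and Mir219a-1 ranked 172 (above 59.6%). The genes next to Mir219a-2 were Mir204 (2168 ± 355 CPM) and Mir379 (2131 ± 67.5 CPM) above it, and Mir107 (2026 ± 13.1 CPM) and Mir301 (1984 ± 18.1 CPM) below it. The values of Mir204 and Mir379 overlapped with those of Mir219a-2, whereas both values of Mir107 and of Mir301 lay under its lower one. Mir338 stood between Mir448 (348 ± 83.8 CPM) and Mir374b (340 ± 4.25 CPM), whose values overlapped with its own. The next genes were Mirlet7a-1 (351 ± 6.31 CPM) above, within the range of Mir338, and Mirlet7a-2 (323 ± 1.64 CPM) below, outside it. Mir219a-1 stood between Mir667 (205 ± 1.33 CPM) and Mir505 (202 ± 8.52 CPM), with Mir669c (205 ± 17.4 CPM) and Mir346 (195 ± 4.18 CPM) beyond them, and all 4 overlapped with it. These neighbours are named for their level alone. Those whose mature form is encoded at several loci may lack reads in the same way as the miR-219 genes. With 1 tissue and 2 pools no likeness of pattern across conditions could be measured.

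Other microRNA genes with a published role in the oligodendrocyte lineage were listed beside the members. All 14 were measured, each with at least 10 reads in both pools, and their sum was 42891 ± 257 CPM (SD, n = 2). Mir17 (17206 ± 1095 CPM), Mir20a (5779 ± 484 CPM) and Mir18 (3018 ± 196 CPM), of a cluster that is known to favour division of precursors, were above every member. Mir92-1 (1053 ± 55.7 CPM) of that cluster lay between Mir219a-2 and Mir338, and Mir19a (38.6 ± 6.09 CPM) and Mir19b-1 (9.00 ± 3.08 CPM) were below Mir219a-1. Mir125a (7419 ± 825 CPM) and Mir23a (5557 ± 218 CPM), which are also expressed in many other cells, were above Mir219a-2. Mir138-1 (1274 ± 95.1 CPM) and Mir138-2 (751 ± 51.4 CPM), linked to early oligodendrocyte differentiation, lay between Mir219a-2 and Mir338. Mir7-1 and Mir7-2, which encode miR-7a, linked to the generation of precursors, were close to the lower members. Mir7-1 (381 ± 14.1 CPM) lay just above both values of Mir338, and the range of Mir7-2 (225 ± 22.6 CPM) met that of Mir219a-1. Mir32 (133 ± 1.24 CPM) and Mir27a (47.7 ± 5.15 CPM) were below Mir219a-1. The broadly expressed genes of this list do not mark oligodendrocytes, and their levels describe the tissue as a whole. Listed genes that share a mature form with another locus, such as Mir7-1 and Mir7-2, may also lack reads placed at several loci. Their order against the members is one of assigned reads.

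**Figure D3:**
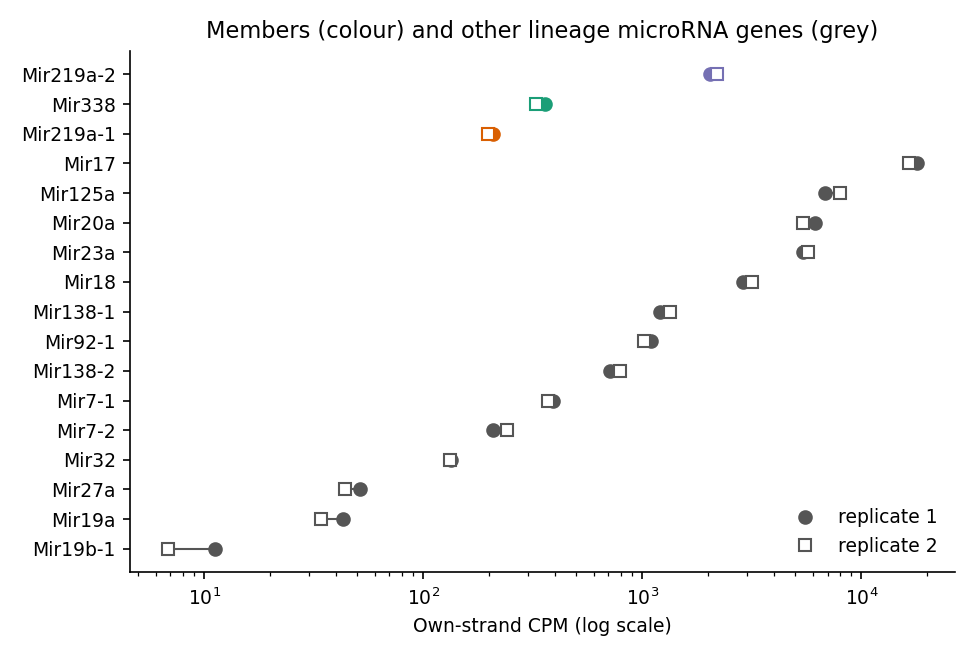
CPM on the gene's own strand (log scale) of the members (colour) and of the 14 other lineage genes (grey), filled circles for replicate 1 and open squares for replicate 2. The 3 members span 197 to 2195 CPM, inside the range of the list, and for each member the pools lie close together.

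The pools were compared to see how far the levels of these genes vary between biological replicates. Mir219a-2 was slightly higher in replicate 2, Mir338 was slightly lower, and Mir219a-1 was not separable at its depth. After TMM scaling, the log2 ratio of replicate 2 over replicate 1 was 0.09 for Mir219a-2 (95% exact interval 0.05 to 0.13), and the exact binomial test gave an adjusted p of 0.00018. It was -0.15 (-0.25 to -0.04) for Mir338, where the exact binomial test gave an adjusted p of 0.0176. For Mir219a-1 it was -0.10 (-0.24 to 0.04), and the adjusted p by that exact test was 0.274. As folds, Mir219a-2 was 1.06-fold higher, Mir338 1.11-fold lower and Mir219a-1 1.07-fold lower in replicate 2. Thus 2 of the 3 genes passed a threshold of 0.05, 1 in each direction. Of the 426 genes tested, at any depth, 35.9% did so (15.3% higher and 20.7% lower in replicate 2). None of the 3 differed by at least 1.5-fold, where 16.7% of the genes tested did. Of the genes tested, 59.6% had a lower mean CPM than Mir219a-1, the lowest member. The binomial test separates smaller ratios at greater depth, and ratios of low counts vary more by counting error. Neither share is therefore a background at the depth of the members. Of the 14 other lineage genes, 6 passed as higher in replicate 2 (Mir125a, Mir138-1, Mir138-2, Mir23a, Mir18 and Mir7-2) and 3 as lower (Mir17, Mir20a and Mir92-1), with a median log2 ratio of -0.06. The median was -0.10 over the 3 members and -0.01 over all genes tested. Mir19b-1, with 44 and 33 reads, was the only lineage gene past 1.5-fold.

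This test compares 2 libraries by counting error and has no replicate on either side. When edgeR's exact test was run with a coefficient of variation assumed at 0.1 for every gene, it called none of the 3 members at an adjusted or an unadjusted p of 0.05, and 1.41% of all genes tested. With genes of at least 1 read admitted, Mir338 was at -0.12 (exact binomial test, adjusted p = 0.119) and no longer passed. The shifts of the members stood in the middle of those of other well-measured genes. Over the 208 tested genes of at least 100 CPM the median size of the log2 ratio was 0.10. Of these, 43.3% had a smaller ratio than Mir219a-2, 51.0% a smaller one than Mir219a-1 and 68.8% a smaller one than Mir338.

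**Figure D4:**
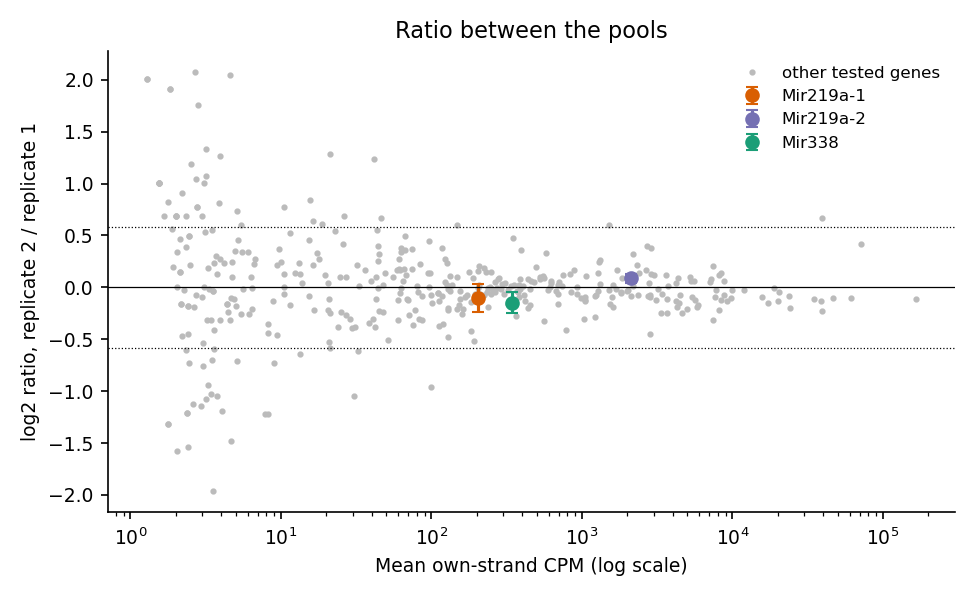
log2 ratio of replicate 2 over replicate 1 after TMM scaling against mean CPM (log scale) for the tested genes, with the members in colour and their 95% exact intervals for counting error; 1 gene with reads in a single library is not drawn. The dotted lines mark 1.5-fold, and Mir219a-2 (0.09), Mir219a-1 (-0.10) and Mir338 (-0.15) lie well between them.

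Markers of other cell types were compared between the same pools. The summed level of the neuronal and neural progenitor list (8 of 9 genes measured) was 11755 CPM in replicate 1 and 13413 CPM in replicate 2, and that of choroid plexus (3 of 3) was 5572 and 7111 CPM. By the binomial test, 4 of the 8 neuronal and progenitor genes and all 3 of choroid plexus passed as higher in replicate 2. The summed level was lower in replicate 2 for microglia and blood (4 of 5 genes measured), at 569 and 429 CPM. All 4 measured genes of that list passed as lower. Mir142, the other gene of that list, has no row, but 1255 and 1133 reads lay on its strand, opposite to Mir142b, and with these the sums were 887 and 663 CPM. Mir126a, the only gene listed for endothelium, was at 25702 and 22600 CPM and passed. The mesenchymal sum was 6482 and 5840 CPM, almost all from Mir143, which was the 1 of 3 genes to pass, while Mir214 (229 and 219 CPM) and Mir145a (79.2 and 80.8 CPM) did not. A pass rests on counting error alone, and 35.9% of all 426 genes tested passed in either direction. That share is over genes of all depths, and the binomial test separates smaller ratios at greater depth. Whether the marker lists passed more often than other genes was not tested. The sum over the miR-219 and miR-338 genes was 2610 and 2720 CPM. No measured marker was at 0 in either pool, and the part of these cell types in the small shifts of Mir219a-2 and Mir338 was not tested.

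Since reads were counted by strand, each locus could be described in both directions. Nearly all reads lay on the strand of the genes with a row. At Mir338, 1415 reads lay on its own strand and 1 on the strand of Mir3065 in replicate 1, and 1589 and 2 in replicate 2. The share on the strand of Mir3065 was 0.0706% (95% exact interval 0.00179 to 0.393) and 0.126% (0.0152 to 0.453). Mir338 thus had 1415 times (254 to 55928) and 794.5 times (220 to 6566) as many reads as the opposite strand, ratios that rest on 1 and 2 reads. Those reads correspond to 0.254 and 0.413 CPM, each under what a count of 0 allows, and by their Poisson intervals the level on that strand was at most 1.41 and 1.49 CPM. The interval that holds both genes was therefore represented almost wholly by reads of the Mir338 strand at this depth. Which arm of Mir338 those reads came from is not recorded in the counts.

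The miR-219 loci gave the same picture with a difference in degree. At Mir219a-2, 1 of 8039 reads in replicate 1 and 0 of 10622 in replicate 2 lay on the strand of Mir219b, and the latter allows a share of up to 0.0282% by the limit of 3 reads, or 0.0347% by the exact 95% interval. At Mir219a-1, 5 of 828 and 4 of 958 reads lay on the strand of Mir219c, or 0.604% (95% exact interval 0.196 to 1.40) and 0.418% (0.114 to 1.07). The intervals of Mir219a-1 lay above those of Mir219a-2 in both pools, and overlapped with those of Mir338. Reads of the stretch that both miR-219 loci share may be missing on this strand too. Of the 385 genes with at least 10 reads on both strands together in each pool, 342 (88.8%) had 0 opposite-strand reads. A higher pooled share than that of Mir219a-1 was seen at 18 genes, than that of Mir338 at 23 and than that of Mir219a-2 at 33.

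Loci where GENCODE places microRNA genes on both strands were set beside the members. There were 32 such pairs, and in each of them only 1 of the genes had a row. At 28 pairs the locus had at least 10 reads in each pool. The share opposite to the gene with a row was under 1% in both pools at 15 of them, the 3 members included, over 90% in both at 11, and in between at 2. At the 11 loci the reads thus lay on the strand of the gene without a row, as at Gm24083 opposite to Mir191, with 0 own-strand reads and 11408 and 14128 opposite ones. The members belonged to the loci where the gene with a row held the reads, so that, apart from reads placed at several loci, the absent rows of Mir3065, Mir219b and Mir219c hid no large count. Gm24083 was chosen after its values were seen.

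**Figure D5:**
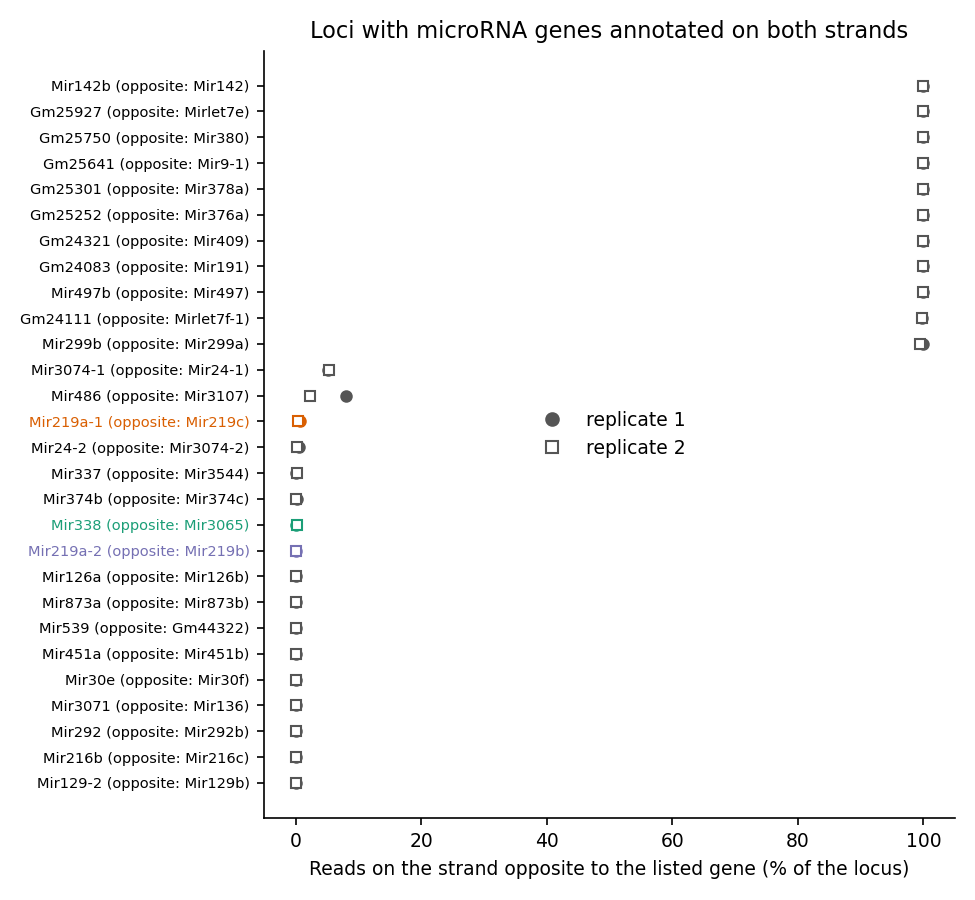
Share of reads (x axis, percent) on the strand opposite to the gene with a row, at the 28 loci where microRNA genes are annotated on both strands, with filled circles for replicate 1 and open squares for replicate 2. The 3 members (colour) lie under 1%, and 11 loci lie over 90%.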

How the data were processed

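Small RNA libraries of 2 hindbrain pools were analysed; that these are separate pools comes from the labels, and the spread between them is all that the SD measures. The authors deposited raw read counts per microRNA gene for each library, on build mm10 with GENCODE M4 per the notes beside each table. For the aligner, trimming and counter, the tool is not given in the sources used here. A gene row holds counts for both strands and for each strand. The tables name no strand, so the gene's own strand was taken to be the column with more reads in all. Rows that name no gene (51.6% and 53.0% of all reads) entered neither library sizes nor tests.

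Symbols and positions came from GENCODE M21 (GRCm38) by identifier without version, for 1894 of 1973 identifiers. Listed symbols not found were looked up among RefSeq synonyms, which matched 4 (Mir7-1, Mir7-2, Mir18 and Mir92-1). Sequences came from the RefSeq table (GRCm38.p6), where all 4 members were matched by symbol and the hairpins of the 3 counted members were identical to M21. Windows were searched in M21 microRNA transcripts on either strand; no genome sequence was used. Hairpin genes are counted whole, and reads placed at several loci are given to no gene, an inference from the layout of the tables.

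The pools were compared over genes with at least 10 reads in a library by an exact two-sided conditional binomial test after TMM scaling (edgeR 4.0.16, R 4.3.3), with Benjamini-Hochberg adjustment over all 426 genes, a threshold of 0.05 and exact Clopper-Pearson intervals (scipy 1.17.1, Python 3.11.15). The procedure was tested on simulated data with counting error only, which cannot show how it behaves when pools also vary. Alternatives were DESeq2 1.42.0 size factors, total counts, count minimums of 1 and 50, both strands, other denominators, each pool alone, and edgeR's exact test at coefficients of variation of 0.1 and 0.2. The members and lists were chosen with earlier results of these data known. Genes named are the members, their neighbours within 10 kb and in level, genes of the same seed, and the listed markers; others are stated as chosen afterwards.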

Additional observations from a re-analysis of the deposited data

How the results depend on the processing

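Directions and the order of the 3 measured genes were the same under every alternative tried. No paired analysis was possible because the series has 1 group. With CPM scaled by all reads instead of own-strand gene reads, the levels were 988 for Mir219a-2, 161 for Mir338 and 94.8 for Mir219a-1, by construction. With both strands counted, the ranks were 76 for Mir219a-2, 151 for Mir338 and 181 for Mir219a-1. With each pool alone the rank was 70 in either for Mir219a-2, 140 to 144 for Mir338 and 169 to 172 for Mir219a-1. Of the 3 genes, 2 passed the binomial test in the analysis as reported; with genes of at least 1 read admitted 1 passed, since Mir338 was at -0.12 with an adjusted p of 0.119 (0.0176 to 0.119 over the settings). With edgeR's exact test, 0 passed at a coefficient of variation of 0.1 and 0 at 0.2, none of them at an unadjusted p under 0.05. The depth limits opposite-strand values to a few reads.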
